A study of Mus musculus with 12 samples.

Results

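The Hox genes of 6 lines of primary mouse embryonic fibroblasts are described here: every gene of the Hoxa, Hoxb, Hoxc and Hoxd clusters that had a probe set of its own on the array. Of 39 Hox genes listed by RefSeq for the mouse, 33 had at least 1 probe set whose annotation gave that gene alone (48 probe sets in all, among 45037 on the array without controls). Where a gene had several, the brightest on average over 12 arrays was taken. Of the 33, 20 had a mean signal of at least 100 and were tested, 5 in each cluster. The other 13 were under that minimum. Hoxb4 lay just above it with a mean of 118 and Hoxa13 just below it with 94.6. The remaining 6 were not analysed here.

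Hox genes encode homeodomain transcription factors that give cells their position along the body axis and along the limb. Within a cluster the genes are numbered in order, and genes with the same number in different clusters are paralogues: low numbers are used towards the head and neck, middle numbers in the trunk, and high numbers towards the tail and the far end of the limbs. Fibroblasts keep much of this code in culture, so a line's Hox profile is commonly read as a record of where in the body its cells came from. The labels do not say which parts of the embryo went into each line.

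RNA was hybridised to Affymetrix Mouse430_2 arrays, 1 per culture. The 12 cultures came from 6 lines, each grown from e14.5 embryos, infected at passage 3 with an adenovirus that carries Cre recombinase, and expanded at least 100 fold. The 3 control lines carried 1 conditional (floxed) allele of a histone acetyltransferase gene: Crebbp, which encodes CBP, in line flox1, and Ep300, which encodes p300, in lines flox2_1 and flox2_2. In the 3 triCH1 lines, 3 of the 4 alleles of both genes lacked the CH1 domain, the part that binds hypoxia-inducible factor, and the fourth allele was floxed (Crebbp in triCH1flox1, Ep300 in triCH1flox2_1 and triCH1flox2_2). Line means of Crebbp signal were 755.2 in flox1 and 790.5 in triCH1flox1, and 1044.9 to 1803.5 in the other lines. Those of Ep300 were 499.2 and 655.1 in flox1 and triCH1flox1, and 237.2 to 423.6 in the Ep300-floxed lines. Whether Cre had removed the floxed allele in these cultures was not tested, so it is not to be taken as intact. Each line gave 1 array in normoxia (21% O2) and 1 in hypoxia (0.1% O2), both after 6 h at 37 °C with 5% CO2, so that there were 4 groups of 3 arrays, controls and triCH1 lines each in normoxia and in hypoxia.

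The scale factors of the arrays lay between 2.57 and 4.28 and their median signals between 57.2 and 76.1. The number of arrays limits the precision of every value below. Of 14 fibroblast markers, 12 had a line mean above 100 in every line, and the summed signal, carried by Vim, S100a4, Fn1 and collagen genes, was 162229 to 204756. Pdgfra was under 100 in flox1 (48.2) and triCH1flox1 (81.2), and Dcn in flox2_1 (59.7) and flox1 (59.2). Signal of the Y-linked Eif2s3y was 1019.0 to 1378.5 in lines flox2_2, flox1 and triCH1flox2_1 and 4.0 to 18.4 in the other 3, where Xist was 643.0 to 1199.2, so lines of both sexes occurred in both genotypes. In arrays of whole cultures, fewer cells of a type and less RNA per cell cannot be told apart.

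The upstream sequences of a few members show what lies at the starts of these genes. RefSeq promoters (GRCm38.p6) were found for 19 of the 33 genes, with 21 starts. Those of Hoxa5, Hoxd10 and Hoxd13 are printed, since these genes were called in a test below and had a single start in the table. The 250 bases before the start are given 5′ to 3′ on the gene's strand, in lower case. Capitals mark ACGTG, the core of the hypoxia response element, or its reverse complement CACGT. The Hoxa5 window is chr6:52204588-52204837 on the minus strand.
Hoxa5: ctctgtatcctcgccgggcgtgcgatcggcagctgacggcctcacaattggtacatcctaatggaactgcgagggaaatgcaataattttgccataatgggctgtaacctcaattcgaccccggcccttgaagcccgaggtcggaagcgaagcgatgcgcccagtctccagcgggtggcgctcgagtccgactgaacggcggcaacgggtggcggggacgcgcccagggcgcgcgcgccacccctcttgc
The Hoxd10 window is chr2:74691641-74691890 on the plus strand.
Hoxd10: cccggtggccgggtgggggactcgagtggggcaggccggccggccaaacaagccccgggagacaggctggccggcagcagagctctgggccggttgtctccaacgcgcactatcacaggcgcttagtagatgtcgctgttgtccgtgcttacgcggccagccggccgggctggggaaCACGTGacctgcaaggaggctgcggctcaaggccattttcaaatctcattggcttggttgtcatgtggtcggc
The Hoxd13 window is chr2:74667975-74668224 on the plus strand.
Hoxd13: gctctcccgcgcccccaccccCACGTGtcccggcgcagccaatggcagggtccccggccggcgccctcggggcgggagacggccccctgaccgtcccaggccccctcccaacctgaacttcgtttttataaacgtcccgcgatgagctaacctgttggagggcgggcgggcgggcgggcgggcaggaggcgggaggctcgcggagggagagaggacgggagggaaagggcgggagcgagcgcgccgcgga
The windows of Hoxd10 and Hoxd13 each held a single CACGTG, in which the motif overlaps itself on the 2 strands, and that of Hoxa5 held none. Over all Hox starts, 5 of 21 (23.8%) held the motif on either strand, against 16.6% of 32851 starts of the same length in the table. The Hox windows were rich in CpG, with a median of 13 CpG and 59.2% G and C against 6 and 52.4% over all starts. The 3 printed windows held 28, 20 and 31 CpG. A match of letters is a description of the window and shows no binding.

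Hox signals differed between lines more than most genes did. The range of a gene's 6 line means, each over a line's normoxia and hypoxia array, had a median of 1.00 on the log2(signal + 20) scale among the 20 members, against 0.61 among all 18903 probe sets tested. With limma's moderated F test over lines, after a term for oxygen, 7 of the 20 (35%) were called at an adjusted p under 0.05: Hoxc5, Hoxb2, Hoxb3, Hoxb9, Hoxc10, Hoxb6 and Hoxd10. Over all probe sets tested, 15.8% were called. At an unadjusted p under 0.05 there were 13 of 20 members against 31.3% of all. Without the line triCH1flox2_1, 1 of the 20 (Hoxc10) was called, against 7.64% of all probe sets.

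**Figure D1:**
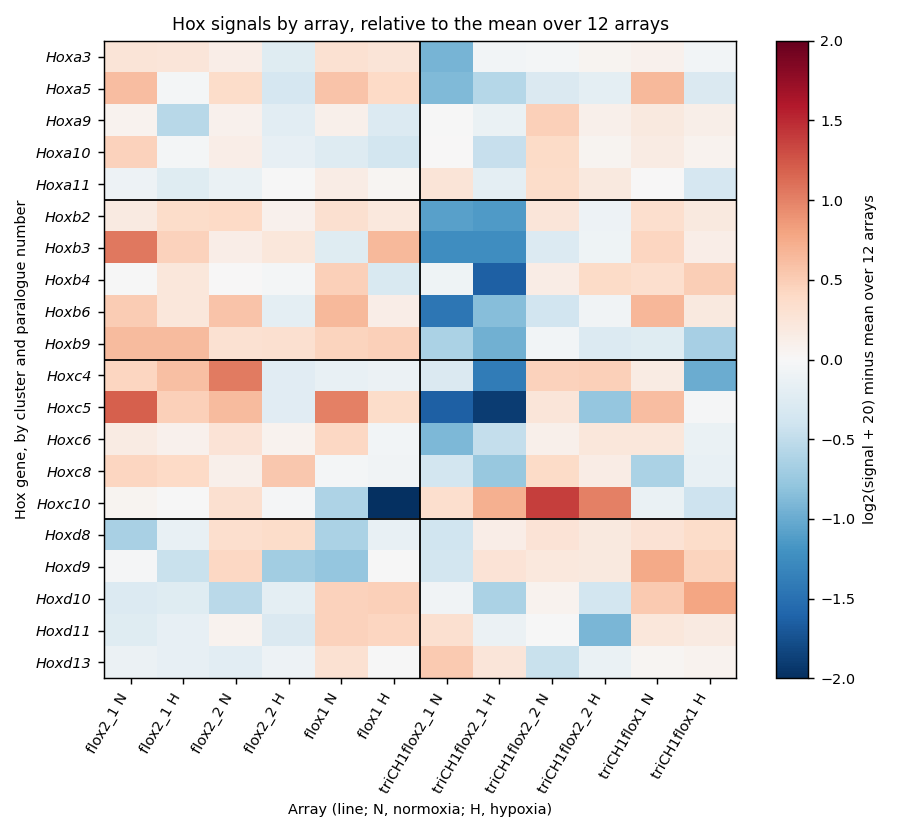
Each cell is the log2(signal + 20) of 1 of the 20 measured Hox genes (rows, by cluster and paralogue number) on 1 of 12 arrays (columns, by line; N, normoxia; H, hypoxia) minus the gene's mean over the 12 arrays. Both arrays of triCH1flox2_1 are low in the low-numbered Hoxb and Hoxc genes, and Hoxc10 is high in both arrays of triCH1flox2_2 and low in flox1.

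The low-numbered genes are described first. Hoxb2, used from the hindbrain backwards, gave signals of 352.7 in normoxia and 403.5 in hypoxia in flox2_1, 411.5 and 327.7 in flox2_2, and 386.9 and 357.7 in flox1. It gave 134.1 and 128.7 in triCH1flox2_1, 366.3 and 286.7 in triCH1flox2_2, and 392.1 and 354.8 in triCH1flox1. Both arrays of triCH1flox2_1 were far below the other 10, which lay between 286.7 and 411.5. Against the other 5 lines Hoxb2 was lower there by a log2 difference of -1.34 ± 0.17 (SE, limma, adjusted p = 2.21e-04, lower on 2 of 2 arrays), or 0.396-fold.

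Hoxb3 read 75.6 in normoxia and 75.8 in hypoxia in triCH1flox2_1. In the other lines it read 453.3 and 292.6 in flox2_1, 228.8 and 245.3 in flox2_2, 172.2 and 337.5 in flox1, 167.9 and 195.1 in triCH1flox2_2, and 287.7 and 229.6 in triCH1flox1. The low pair again belonged to triCH1flox2_1 and did not overlap with any other array, though the 2 arrays of flox1 also stood far from each other. The log2 difference of triCH1flox2_1 from the other 5 was -1.50 ± 0.25 (SE, limma adjusted p = 0.00162).

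Hoxb6, a trunk-level gene, read 65.1 and 108.1 in triCH1flox2_1 in normoxia and hypoxia. The other lines read 311.3 and 251.2 (flox2_1), 324.6 and 182.3 (flox2_2), 343.7 and 235.8 (flox1), 157.9 and 200.7 (triCH1flox2_2) and 349.1 and 246.8 (triCH1flox1). Its lowest pair was that of triCH1flox2_1 and its next lowest array that of triCH1flox2_2 in normoxia. The difference of triCH1flox2_1 was -1.38 ± 0.25 on the log2 scale (SE, limma adjusted p = 0.00305).

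Hoxc5 had the smallest p of all members in the line test (limma adjusted p = 2.07e-04). It read 42.5 in normoxia and 31.5 in hypoxia in triCH1flox2_1, 207.5 and 93.5 in triCH1flox2_2, and 275.1 and 170.3 in triCH1flox1. In the control lines it read 423 and 249.6 (flox2_1), 279.4 and 145.7 (flox2_2) and 369.2 and 227.6 (flox1). Both arrays of triCH1flox2_1 were below the other 10, and line means ran from 37.0 there to 336.3 in flox2_1. In triCH1flox2_1 Hoxc5 was lower by -2.12 ± 0.22 (log2, SE, limma adjusted p = 3.28e-05), or 0.23-fold. A second Hoxc5 probe set gave -2.33 ± 0.28 (SE, limma adjusted p = 1.40e-04). Hoxc5 was higher than in the other 5 lines in flox2_1, by 1.01 ± 0.22 (SE, limma adjusted p = 0.0226), and in flox1, by 0.82 ± 0.22 (SE, limma adjusted p = 0.0344). These higher values had the low line among their comparators: without triCH1flox2_1 they were 0.61 (adjusted p = 0.177) and 0.42 (adjusted p = 0.318) in limma. Without triCH1flox2_2 they were 0.98 (adjusted p = 0.0504) and 0.79 (adjusted p = 0.0746). Both calls were also lost without the filter on low signals and without the oxygen term. The second probe set gave 0.84 ± 0.28 in flox2_1 and 0.62 ± 0.28 in flox1, neither called (SE, limma adjusted p = 0.156 and 0.2).

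Hoxa5, the Hoxa member of the same paralogue number, read 147.6 and 187.1 in triCH1flox2_1 in normoxia and hypoxia. It read 450.7 and 279.7 in flox2_1, 379.5 and 224.5 in flox2_2, 438.7 and 384.8 in flox1, 230.9 and 248.9 in triCH1flox2_2, and 462.6 and 233.1 in triCH1flox1. The triCH1flox2_1 arrays were the lowest, and the next 4 arrays, from 3 other lines, lay between 224.5 and 248.9. Its difference in triCH1flox2_1 was -0.87 ± 0.23 (log2, SE, limma adjusted p = 0.0263), and without flox1 it was -0.79 (adjusted p = 0.0816). A second probe set gave -0.74 ± 0.25 (SE, limma adjusted p = 0.0704).

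Among the neighbours on Hoxc, Hoxc8 read 244.5 and 182.2 in triCH1flox2_1, 201.1 and 289.2 in triCH1flox1, 423.6 and 357.6 in triCH1flox2_2, 439.6 and 428.3 in flox2_1, 344 and 478 in flox2_2, and 311.7 and 305.7 in flox1 (normoxia, then hypoxia). Here the arrays of triCH1flox2_1 overlapped with those of triCH1flox1. The difference of triCH1flox2_1 was -0.67 ± 0.20 (log2, SE, limma adjusted p = 0.0413). It lost its call when flox2_1, flox1, flox2_2 or triCH1flox2_2 was left out, with differences of -0.60, -0.71, -0.62 and -0.63 and limma adjusted p of 0.0626, 0.0642, 0.0586 and 0.0618. Hoxc6 was lower in triCH1flox2_1 by -0.82 ± 0.21 (log2, SE, limma adjusted p = 0.0206), with line means of 142.2 there and 248.0 to 275.1 in the other 5. A second Hoxc6 probe set gave -0.69 ± 0.26 (SE, limma adjusted p = 0.103).

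Hoxc4 read 95.1 and 33.4 in triCH1flox2_1, 170 and 193.5 in flox2_1, 270.1 and 99.9 in flox2_2, 107.3 and 109.4 in flox1, 172.8 and 174.8 in triCH1flox2_2, and 137.6 and 50.7 in triCH1flox1 (normoxia, then hypoxia). The 2 arrays of flox2_2, of triCH1flox2_1 and of triCH1flox1 stood far apart and the lines overlapped. The difference of triCH1flox2_1, -1.01 ± 0.33 (log2, SE), was not called by limma (adjusted p = 0.0615). Hoxb4 gave -1.03 ± 0.34 there and Hoxa3 -0.59 ± 0.26 (log2, SE), and neither was called by limma (adjusted p = 0.0686 and 0.167). Their line means in triCH1flox2_1 were 62.6 and 99.7, against 109.2 to 154.0 and 135.9 to 175.3 in the other lines.

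**Figure D2:**
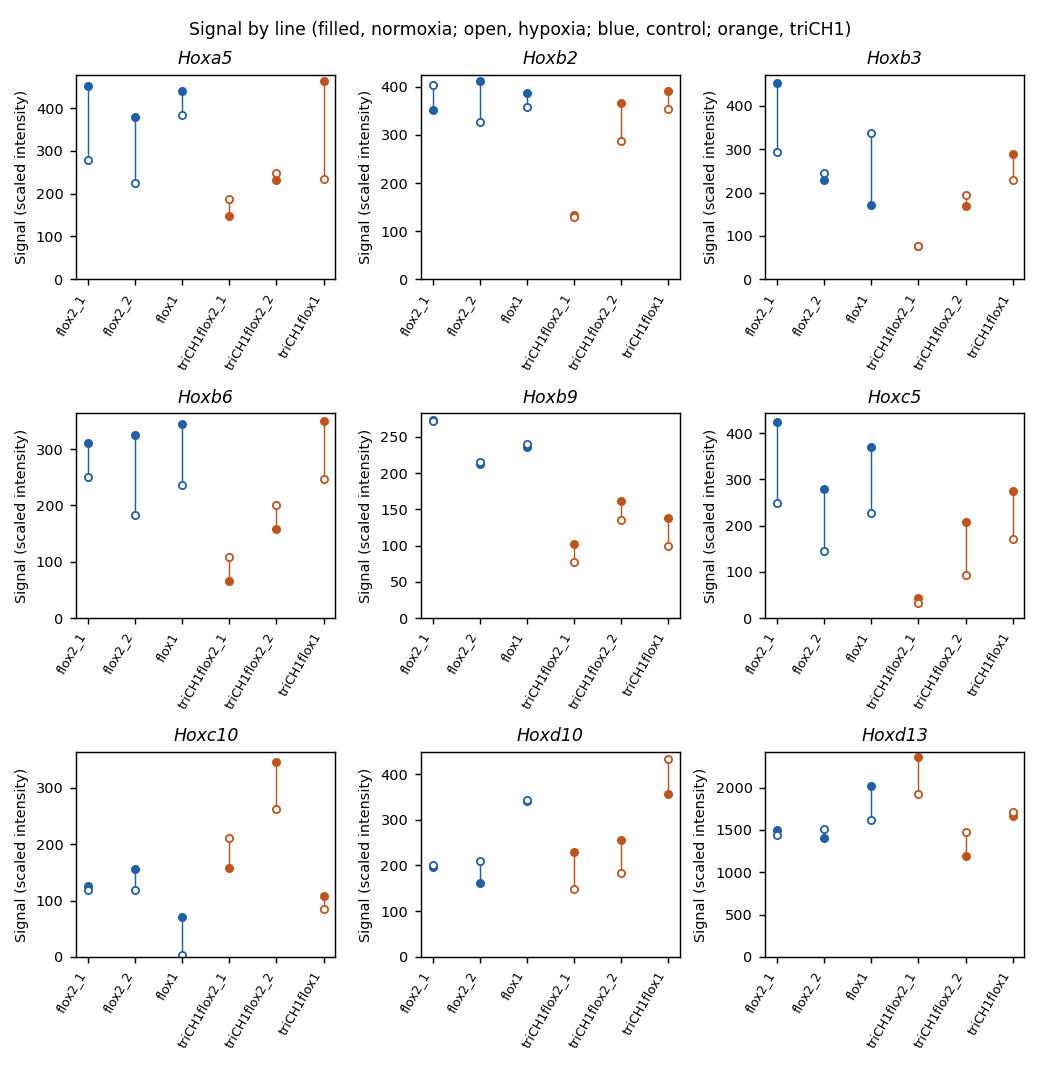
Signal (scaled intensity, axes from 0) of 9 Hox genes in the 6 lines; filled points are normoxia, open points hypoxia, joined by a bar for each line, with control lines in blue and triCH1 lines in orange. Hoxb2 reads 134.1 and 128.7 in triCH1flox2_1 and 286.7 or more on the other 10 arrays, and Hoxb9 is lower on every triCH1 array than on every control array.

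Seen over all low and middle paralogue numbers, triCH1flox2_1 had the low values. All 11 measured members with paralogue numbers 2 to 8 lay below the mean of the 6 lines in it, and in 10 of the 11 it was the lowest of the 6 lines; the exception was Hoxd8. Their median deviation from the 6-line mean was -0.84 in triCH1flox2_1 and between 0.07 and 0.29 in the other 5 lines (log2). For the 9 members with paralogue numbers 9 to 13 the median in triCH1flox2_1 was -0.05, with 5 of the 9 below the mean. By cluster, the median in that line was -0.23 for Hoxa, -1.11 for Hoxb, -0.68 for Hoxc and -0.05 for Hoxd. The division between 8 and 9 was made with these values in view, and no test was made of it. Second probe sets did not all follow it in triCH1flox2_1 against the other 5 lines. Those of Hoxa5, Hoxc5 and Hoxc6 were lower, as given above. Those of Hoxd8 and Hoxa3 gave 0.03 ± 0.28 and -0.32 ± 0.29 (log2, SE), neither called by limma (adjusted p = 0.968 and 0.526). The second probe set of Hoxa9 gave -0.69 ± 0.20 (log2, SE, limma adjusted p = 0.0392). Hoxd8 was the only Hoxd gene among the 11, and Hoxb9 was also low in triCH1flox2_1 (-0.79, log2). Paralogue number and cluster can therefore not be fully told apart here.

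In all, 9 of the 20 members (45%) were called in triCH1flox2_1 against the other 5 lines with limma, against 12.0% of all probe sets tested. Of these, 8 were lower (Hoxa5, Hoxb2, Hoxb3, Hoxb6, Hoxb9, Hoxc5, Hoxc6 and Hoxc8), and Hoxd13 was higher. The median log2 difference of the 20 members was -0.63, and that of all probe sets 0.04. Hoxb2, Hoxb3, Hoxb6, Hoxb9, Hoxc5 and Hoxc6 stayed called when any other line was left out. In the other lines the counts were 1 of 20 in flox2_1 (2.42% of all probe sets), 0 in flox2_2 (1.13%), 2 in flox1 (7.48%), 1 in triCH1flox2_2 (6.09%) and 0 in triCH1flox1 (3.08%). At an unadjusted p under 0.05 limma gave 12 members in triCH1flox2_1 (26.5% of all probe sets) and 8 in flox1 (23.3%). It gave 5 in flox2_1 (15.7%), 5 in triCH1flox2_2 (21.5%), 5 in triCH1flox1 (16.8%) and 1 in flox2_2 (9.47%).

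**Figure D3:**
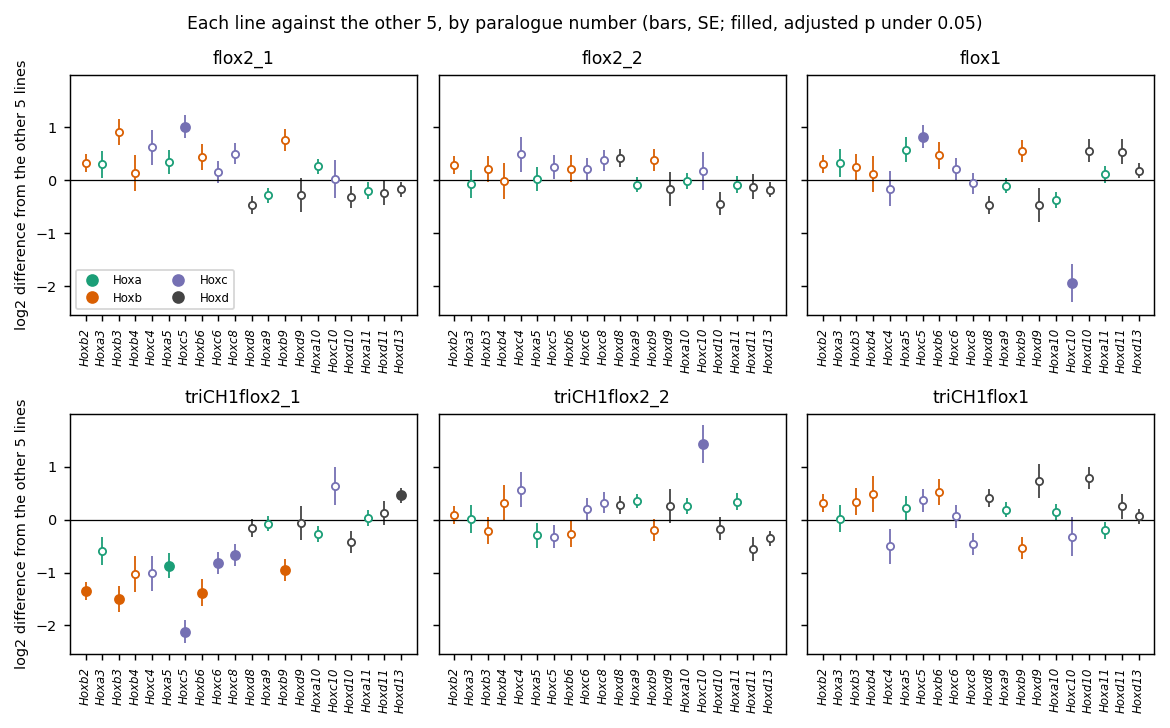
Log2 difference of each line from the mean of the other 5, with its SE (limma), for the 20 measured Hox genes ordered by paralogue number; green, Hoxa; orange, Hoxb; purple, Hoxc; grey, Hoxd; filled points have an adjusted p under 0.05. In triCH1flox2_1 the points from Hoxb2 to Hoxc8 lie between -0.59 and -2.12, and those from Hoxd8 onwards between -0.43 and 0.63 apart from Hoxb9 at -0.95.

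Composition markers differed among lines too, and their part in the Hox values was not tested. In triCH1flox2_1 they stood as follows. Of 14 fibroblast markers tested, 5 were higher and 1 lower in it, among them the matrix genes Lum (3.51 ± 0.20, log2, SE, limma adjusted p = 3.30e-07) and Dcn (2.58 ± 0.36, adjusted p = 4.45e-04). Of 15 skeletal muscle markers, 3 reached the minimum and were tested, and 2 of these were lower. The summed signal of the muscle list was 9483 in triCH1flox2_1 and 13056 to 18397 in the other lines. Acta1 carried most of it, with 8939.5 in triCH1flox2_1 and 12219.4 to 17310.5 in the other lines. Of 3 endothelial markers tested, 2 were lower, with a summed signal of 666 against 745 to 1406. Both adipocyte markers tested, Pparg and Fabp4, were higher in it. Of the other lists, 1 of 6 cartilage and bone markers was higher and 2 lower, 2 of 5 epithelial markers were higher, 1 of 5 neural markers was higher and 1 lower, and 0 of 4 macrophage markers were called. In flox1, 3 of 14 fibroblast markers were higher and 4 lower, 4 of 5 neural markers were higher (summed signal 6987, against 3253 to 5811 in the other lines), and 2 of 3 muscle markers were higher. In flox2_1, 4 of 6 cartilage and bone markers were higher (summed signal 8701, against 2494 to 4595), 2 of 5 neural markers were lower and 1 of 14 fibroblast markers was lower. In triCH1flox2_2, 2 fibroblast markers were higher and 2 lower, as were 2 and 2 neural markers.

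Hoxd13, which acts at the far end of the limb bud, read 2358.5 and 1924.8 in triCH1flox2_1 in normoxia and hypoxia. The other lines read 1501.3 and 1442.9 (flox2_1), 1407.5 and 1516.1 (flox2_2), 2014.1 and 1621.7 (flox1), 1195.5 and 1475.4 (triCH1flox2_2) and 1665.3 and 1708.1 (triCH1flox1). The pair of triCH1flox2_1 was the highest on average but overlapped with flox1. It was higher by 0.46 ± 0.14 (log2, SE, limma adjusted p = 0.0436). The call was lost without flox1 (0.52, adjusted p = 0.0526), flox2_2 (0.44, adjusted p = 0.056) or triCH1flox2_2 (0.41, adjusted p = 0.058) in limma, and also with quantile normalization or centring of arrays on their median. A second Hoxd13 probe set gave 0.60 ± 0.16 (SE, limma adjusted p = 0.0271).

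Hoxc10, a gene of lumbar levels and the hindlimb, was the member with the widest range among lines, 2.81 on the log2 scale. It read 346.2 in normoxia and 261.8 in hypoxia in triCH1flox2_2 and 157.4 and 210.9 in triCH1flox2_1. It read 108.2 and 85.7 in triCH1flox1, 125.3 and 119.3 in flox2_1, 156 and 118.1 in flox2_2, and 71.6 and 2.8 in flox1. The highest pair was that of triCH1flox2_2 and the lowest that of flox1, and neither overlapped with the other lines. Against the other 5 lines Hoxc10 was higher in triCH1flox2_2 by 1.43 ± 0.36 (log2, SE, limma adjusted p = 0.0308) and lower in flox1 by -1.94 ± 0.36 (adjusted p = 0.00496). The size in flox1 leaned on the hypoxia array's 2.8 and moved from -0.97 to -3.23 between pseudocounts of 100 and 1. The call in triCH1flox2_2 was lost with a pseudocount of 1 (1.80, limma adjusted p = 0.132). In the test over all lines Hoxc10 lost its call without triCH1flox2_2 (limma adjusted p = 0.0874).

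Hoxd10, active in the lumbar region and the limbs, read 356.5 and 433.3 in triCH1flox1 and 341.8 and 343.1 in flox1, the pair of lines whose floxed allele is Crebbp (normoxia, then hypoxia). It read 196.3 and 201.1 in flox2_1, 160.6 and 209.6 in flox2_2, 228.8 and 148.3 in triCH1flox2_1, and 255.8 and 184.1 in triCH1flox2_2. Every array of the 2 Crebbp-floxed lines was above every array of the 4 Ep300-floxed lines. This split was picked from the values, among other ways to divide the lines. It was not tested, and its share over all probe sets was not computed. Hoxd10 was called in the line test (limma adjusted p = 0.044) but in no single line against the other 5, where its largest difference was 0.79 ± 0.21 in triCH1flox1 (SE, limma adjusted p = 0.0661). The call in the line test was lost when triCH1flox2_1, triCH1flox2_2, flox1 or triCH1flox1 was left out, with limma adjusted p of 0.0644, 0.0504, 0.119 and 0.183.

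Hoxd8, the lowest-numbered measured gene of its cluster, read 260.7 and 378.5 in flox2_1, 535.7 and 547.3 in flox2_2, 263.2 and 374.4 in flox1, 313.6 and 461.6 in triCH1flox2_1, 512.3 and 482.3 in triCH1flox2_2, and 519.2 and 546.7 in triCH1flox1 (normoxia, then hypoxia). The arrays of flox2_2, triCH1flox2_2 and triCH1flox1 lay above those of the other 3 lines. This grouping was picked from the values and not tested, and its share over all probe sets was not computed. Limma's line test missed its threshold (adjusted p = 0.0516), and a second Hoxd8 probe set gave an adjusted p of 0.251. In flox2_1 the 2 Hoxd8 probe sets went opposite ways, by -0.47 ± 0.17 and 0.48 ± 0.28 (log2, SE). Neither was called by limma (adjusted p = 0.195 and 0.439). Of the remaining high-numbered genes, Hoxa11 had line means of 400.4 to 557.5 and Hoxd11 of 126.3 to 241.3, and neither was called in any line. Hoxa9 gave a log2 difference of -0.08 ± 0.14 in triCH1flox2_1, but its second probe set gave -0.69 ± 0.20 there (SE, limma adjusted p = 0.0392), so the 2 probe sets of this gene disagreed.

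The 13 members under the minimum had mean signals from 17.2 (Hoxc13) to 94.6 (Hoxa13) and were not tested. Of these, 5 have paralogue numbers from 9 to 13 (Hoxa13, Hoxb13, Hoxc9, Hoxc13 and Hoxd12). With all 33 genes counted, 18 of 19 with numbers up to 8 were below the 6-line mean in triCH1flox2_1, with a median of -0.56, and that line was the lowest of the 6 in 11 of the 19. Several of the added genes were near the floor of the signal, such as Hoxd3 with a mean of 18.9 and Hoxd1 with 22.2. The antisense transcript Hoxb5os, which no rule chose and which lies in the Hoxb cluster, read 140 and 110.7 in triCH1flox2_1 and 153.6 and 224.9 in triCH1flox2_2, against 249.3 to 757.2 on the other 8 arrays. The share of all probe sets with such a split was not computed. Another antisense transcript, Hoxa11os, was not low in triCH1flox2_1. Its brighter probe set read 289 and 246.8 there and 187.1 to 359.6 on the other arrays.

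The Hox profile of a line was largely kept between its 2 cultures. For each line, the normoxia profile (20 members, each minus the mean of the 6 normoxia arrays) was correlated with the hypoxia profiles of all lines. In 5 of 6 lines the closest hypoxia profile was the line's own, with r between 0.62 and 0.66. The exception was flox2_2, with r of 0.08 to itself and 0.48 to flox2_1. Over all 18903 probe sets it was also 5 of 6 lines, with flox2_2 again the exception (0.14 to itself and 0.30 to flox1). These are correlations across genes, which are not independent.

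Other regulators of position differed among the lines as well. Of 18 tested genes of limb and trunk position, 8 were called in limma's line test, as were 1 of 3 genes of the head and forebrain, 5 of 9 retinoid and caudal regulators, 3 of 23 polycomb and trithorax genes, and 0 of 7 Hox cofactors, of which 4 had an unadjusted p under 0.05. The share over all probe sets was 15.8%. Pitx1, which marks the hindlimb, had line means of 704.7 in triCH1flox2_2, 435.6 in triCH1flox2_1 and 153.9 to 184.2 in the other 4 lines (limma adjusted p = 2.56e-04). Tbx4, also of the hindlimb, was 442.9 and 505.1 in those lines and 172.5 to 285.4 in the others (adjusted p = 0.002). The 2 lines with the highest line means of Hoxc10 were also those with the highest Pitx1 and Tbx4. This match was seen in the values and was not tested. Hoxc10 was not called in triCH1flox2_1 (0.63 ± 0.36, log2, SE, limma adjusted p = 0.286). Hoxd10 went the other way, with -0.43 in triCH1flox2_1 and -0.17 in triCH1flox2_2 (log2), neither called.

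Hand2, a gene of the posterior limb bud and the branchial arches, had a line mean of 819.2 in triCH1flox1 against 177.9 to 376.1 elsewhere (limma adjusted p = 5.20e-04). Foxd1 was 108.8 to 184.1 in the 3 triCH1 lines and 306.2 to 437.4 in the controls (adjusted p = 5.99e-04), though it was not called between genotypes over line means (-1.27 ± 0.24, log2, SE, limma adjusted p = 0.216). Prrx1, a gene of limb and head mesenchyme, ran from 2609.6 in triCH1flox1 to 8619.4 in triCH1flox2_1 (adjusted p = 0.00114). Lhx2, of the head list and also a limb bud gene, was 263.9 in triCH1flox2_1 and 32.4 in triCH1flox1 (adjusted p = 0.0129).

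**Figure D4:**
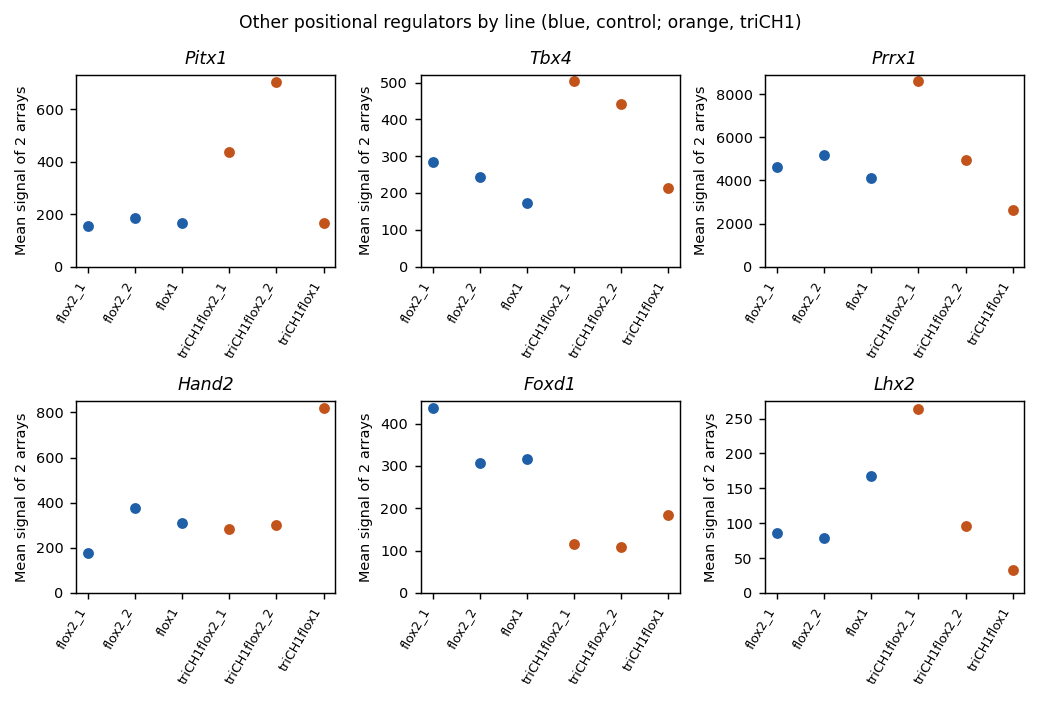
Mean signal of a line's 2 arrays (axes from 0) for 6 regulators of position that were called in the line test; blue, control lines; orange, triCH1 lines. Pitx1 and Tbx4 are highest in triCH1flox2_1 and triCH1flox2_2, Prrx1 and Lhx2 in triCH1flox2_1, and Hand2 in triCH1flox1.

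Among the retinoid genes, the cytosolic retinoic acid binding protein gene Crabp1 had line means of 2236.9 in flox2_2 and 234.6 to 891.0 in the other lines (limma adjusted p = 3.65e-06). Aldh1a3, which makes retinoic acid, was 1368.3 in triCH1flox2_1 and 260.0 in triCH1flox1 (adjusted p = 2.07e-05). Dhrs3, Cyp26b1, which breaks retinoic acid down, and Crabp2 were called too. Of the polycomb genes, Ezh2, the methyltransferase that silences Hox genes, was 1418.8 in triCH1flox2_1 and 1396.2 in triCH1flox2_2 and 576.8 in flox1 (adjusted p = 0.00288). Its relative Ezh1 ran the other way, with 116.2 in triCH1flox2_1 and 147.8 to 272.6 in the other lines (adjusted p = 0.0445). The insulator protein gene Ctcf, on the same list, was 1262.2 in triCH1flox2_1 and 610.6 in flox1 (adjusted p = 0.0259). Of the Hox cofactors, Meis1 had a line mean of 67.2 in triCH1flox2_1 and 165.6 to 184.6 in the other lines; it was called against the other 5 lines (-1.22 ± 0.27, log2, SE, limma adjusted p = 0.0108) but not in the test over all lines (adjusted p = 0.0854).

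Genotype was compared with 1 array per line, 3 control against 3 triCH1 lines. No Hox member was called by limma in normoxia (0.00529% of all probe sets were) or in hypoxia (0.0741%), nor over line means (0%). At an unadjusted p under 0.05 there were 4 members of 20 in normoxia (7.56% of all probe sets), 2 in hypoxia (7.97%) and 2 over line means (9.83%), the last 2 counts being near the share over all probe sets. The median log2 difference of the members over line means was -0.22, and of all probe sets 0.03.

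Hoxb9, used from the thorax backwards, came nearest. It read 272.5 (flox2_1), 212.2 (flox2_2) and 236.6 (flox1) in the control lines in normoxia and 272.4, 215.2 and 240.6 in hypoxia. In triCH1flox2_1, triCH1flox2_2 and triCH1flox1 it read 101.5, 160.9 and 138.6 in normoxia and 76.8, 135.4 and 99.3 in hypoxia. All 6 triCH1 arrays were below all 6 control arrays. Of the 20 members, 1 (Hoxb9) had arrays that did not overlap between genotypes, against 1.69% of all probe sets. The group means were 240 ± 30.3 and 134 ± 30.0 in normoxia and 243 ± 28.7 and 104 ± 29.6 in hypoxia (SD, n = 3). The log2 difference was -0.77 ± 0.25 in normoxia (SE, limma adjusted p = 0.456), -1.11 ± 0.25 in hypoxia (adjusted p = 0.185) and -0.94 ± 0.22 over line means (adjusted p = 0.252). By line, Hoxb9 was called in triCH1flox2_1 against the other 5 (-0.95 ± 0.21, log2, SE, limma adjusted p = 0.0105), and triCH1flox1 and triCH1flox2_2 gave -0.54 and -0.20. Without triCH1flox2_1 the difference over line means was -0.78 (limma adjusted p = 0.537). Over alternatives the limma adjusted p over line means ran from 0.0843 to 0.652.

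Line means also did not overlap for Hoxd9, which was higher in the triCH1 lines: 113.1, 131.1 and 103.1 in flox2_1, flox2_2 and flox1, against 133.3, 159.2 and 217.1 in triCH1flox2_1, triCH1flox2_2 and triCH1flox1. Its arrays in normoxia and hypoxia read 131.9 and 94.3, 186.2 and 75.9, and 71.2 and 134.9 in those control lines, and 100.2 and 166.5, 160.4 and 158.1, and 242.7 and 191.5 in those triCH1 lines. Single arrays of the genotypes overlapped, and the difference of 0.51 ± 0.23 (log2, SE) was not called by limma (adjusted p = 0.527). With Hoxb9 this made 2 of 20 members without overlap of line means, where all probe sets gave 14.2%. Hoxc5 was lower over line means by -1.16 ± 0.47 (SE, limma adjusted p = 0.481), and by -0.56 without triCH1flox2_1. The genotype of a line and the embryo it came from cannot be told apart beyond the spread among 3 lines.

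**Figure D5:**
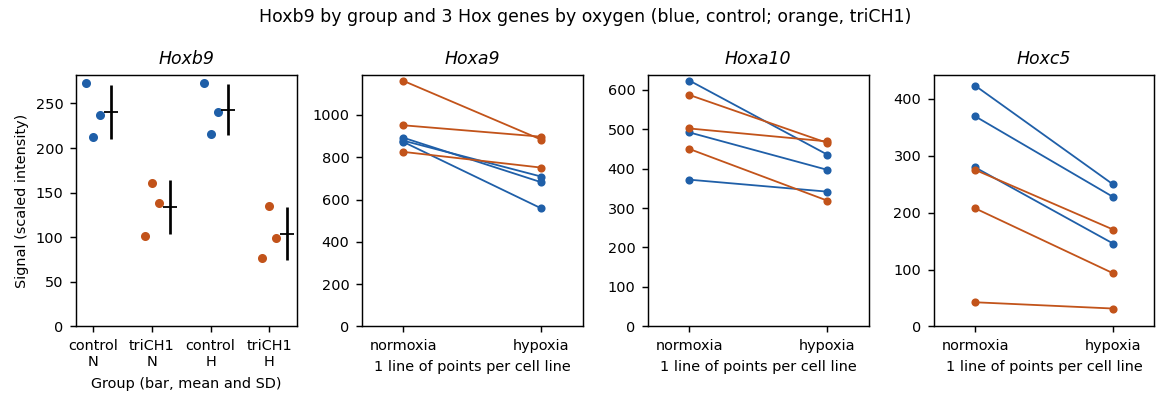
Left, Hoxb9 signal (scaled intensity) of the 3 arrays of each group with the mean and SD (N, normoxia; H, hypoxia): the triCH1 arrays lie between 76.8 and 160.9 and the control arrays between 212.2 and 272.5. The other panels join the normoxia and the hypoxia array of each line for Hoxa9, Hoxa10 and Hoxc5, which are lower in hypoxia in all 6 lines; blue, control; orange, triCH1.

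Few Hox members passed a test for oxygen. No member was called by limma for the response to hypoxia in control lines (0.831% of all probe sets were), in triCH1 lines (0.635%) or for the difference between the responses (0%). At an unadjusted p under 0.05 the counts were 1, 0 and 0 members, against 5.98, 6.25 and 0.693% of all probe sets. With the line as a block, 264 and 189 of all probe sets were called in place of 157 and 120, and still 0 members (3 and 1 at an unadjusted p under 0.05, against 9.41 and 10.4% of all probe sets). With each line as its own control, the median response was -0.17 over the 20 members and -0.03 over all probe sets (log2), and the mean response over the 6 lines was called for 1 member, Hoxc5, against 4.42% of all probe sets.

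Hoxc5 was lower in hypoxia in every line, by the signals given above: 423 to 249.6, 279.4 to 145.7 and 369.2 to 227.6 in the control lines and 42.5 to 31.5, 207.5 to 93.5 and 275.1 to 170.3 in the triCH1 lines. The mean paired response was -0.69 ± 0.16 (log2, SE, limma adjusted p = 0.0264, lower in 6 of 6 lines). The call was lost when flox2_1, flox2_2, flox1, triCH1flox2_2 or triCH1flox1 was left out, with limma adjusted p of 0.0549, 0.0825, 0.0809, 0.0899 and 0.0651 and differences from -0.63 to -0.70. The second Hoxc5 probe set gave -0.47 ± 0.21 (SE, limma adjusted p = 0.255).

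Hoxa9, a gene of the trunk and the upper limb, read 872.4 and 558.2 in flox2_1, 878.6 and 708.7 in flox2_2, 892.4 and 681.9 in flox1, 825.5 and 751.2 in triCH1flox2_1, 1161.2 and 883.3 in triCH1flox2_2, and 951.3 and 897.4 in triCH1flox1 (normoxia, then hypoxia). Every line was lower in hypoxia. In the 3 control lines the response was -0.44 ± 0.17 (log2, SE) and was not called by limma (adjusted p = 0.658). The mean paired response was -0.32 ± 0.11 (log2, SE, limma adjusted p = 0.116), and its second probe set gave -0.44 ± 0.15 (adjusted p = 0.12). With 1 value per gene, the mean over its probe sets, Hoxa9 was called (-0.38, limma adjusted p = 0.0395) and Hoxc5 was not (-0.58, adjusted p = 0.0675), so the single called member was then another gene.

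Hoxa10, its neighbour, read 622.9 and 435.4 in flox2_1, 491.5 and 396.8 in flox2_2, 371.8 and 341.5 in flox1, 449.6 and 318.8 in triCH1flox2_1, 586.4 and 465 in triCH1flox2_2, and 501.5 and 468.7 in triCH1flox1. It too was lower in hypoxia in 6 of 6 lines, by -0.30 ± 0.12 on the log2 scale (SE, limma adjusted p = 0.176). These 3 of 20 members were lower in hypoxia in all lines, against 7.23% of all probe sets, and 0 members were higher in all lines, against 5.14%. The normoxia and hypoxia arrays serve all of these comparisons, which are therefore not independent of each other.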

How the data were processed

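Signals of 12 Affymetrix Mouse430_2 arrays were used. The authors made these linear probe set intensity values with Affymetrix's Statistical algorithm and scaled them to a target of 500 before they were deposited, per the labels; other steps are not given in the sources used here. Each gene had 1 probe set, named by GEO's platform annotation. Signals were tested as log2(signal + 20) where the mean over all arrays reached 100 (18903 probe sets), with limma 3.58.1 (lmFit, eBayes with a trend, R 4.3.3) and Benjamini-Hochberg adjustment within a contrast, called under 0.05, two-sided. The line test had line and oxygen terms; genotype and oxygen contrasts had 1 mean per group, and line means were also compared. Folds and differences are on the log2(signal + 20) scale and understate low signals. Normoxia and hypoxia arrays shared a line name, and after removal of group means their correlation was -0.02 in flox2_2 and 0.28 to 0.58 in the other 5 lines. P-values of the line test measure the spread between a line's 2 cultures. Members and lists were chosen with earlier results of these data known, and the paired response over 6 lines was added after the data were seen. Named members are all those measured, with every array given for the 12 with the smallest p in the line test and the 3 with the smallest p for genotype and for oxygen; other regulators are up to 5 called genes per list. Tests were checked on simulated data, in which arrays were drawn independently apart from the changes put in. That check does not cover the correlation between a line's 2 arrays or other differences among lines.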

Additional observations from a re-analysis of the deposited data

How the results depend on the processing

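Counts of called Hox members were recomputed with other pseudocounts, filters, array scalings, variance settings, 1 value per gene, other models and with each line or array left out. The count of the line test was 7 and ran from 1 to 9 with single lines left out. The total over the 6 lines, each against the other 5, was 13. It was 6 without a filter on low signals and 7 without the oxygen term, and ran from 3 to 15 with single lines left out. For triCH1flox2_1 it was 9, 5 without the filter, and 6 to 10 with single lines left out. The oxygen term over all lines called 1 member (Hoxc5; Hoxa9 instead with 1 value per gene), 0 without the filter, and 0 to 1 with single lines left out. Without a filter more probe sets are tested; the cause of the other changes was not tested. The line as a replicate block gave 0 called members for the oxygen contrasts (fixed) and the genotype contrasts (random), as the fits without it did; with the block Hoxb9 differed between genotypes by -0.77 in normoxia and -1.11 in hypoxia, and Hoxa9 by -0.44 between conditions in control lines. With the median of members 2 to 8 in triCH1flox2_1 at -0.84, pseudocounts of 1 and 100 gave -1.05 and -0.49. None of the called line differences, and none of the genotype differences of Hoxb9, Hoxc5 and Hoxd9 or oxygen responses of Hoxc5, Hoxa9 and Hoxa10, changed direction under the alternatives run for them. The filter at 200 removed 7 members, Hoxb9 and Hoxc10 among them. With 2 arrays per line and signals of several members near the minimum, small differences could not be resolved.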
